A study of Mus musculus with 12 samples.

Results

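The mRNAs of 9 antioxidant genes that are widely described as targets of the transcription factor NRF2 were followed in mouse hippocampal neurons: *Hmox1*, *Slc7a11*, *Gclm*, *Gclc*, *Txnrd1*, *Srxn1*, *Txn1*, *Nqo1* and *Osgin1*. They were chosen by name, with earlier results of these data known, and found through their Entrez identifiers among the 27179 genes listed in the count tables. All 9 passed the filter on low counts, as did 14185 genes in all. Primary neurons from hippocampi of newborn pups, labelled C57BL/6 (the study's methods name C57BL/6 and FVB mice), were kept for 17 or 18 days in culture on porous Transwell membranes, which let projections grow through while cell bodies stay on top, so that somas and neurites were harvested apart. The 4 groups had 3 libraries each: Ctrl somas and Ctrl neurites from cultures given the DMSO vehicle, and MG132 somas and MG132 neurites from cultures given the proteasome inhibitor MG132 at 10 μM for 7 h. The labels do not say whether replicate numbers stand for separate cultures, so the p-values measure the spread between these libraries.

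NRF2, encoded by *Nfe2l2*, is a basic leucine zipper protein that KEAP1 holds in the cytoplasm and presents to a CUL3 and RBX1 ubiquitin ligase, after which the proteasome degrades it. When KEAP1 is modified by electrophiles, or when degradation is blocked, NRF2 enters the nucleus, pairs with a small MAF protein and binds antioxidant response elements (AREs), sites that the repressor BACH1 can also occupy. Its targets break down heme, make glutathione, reduce thioredoxin and detoxify quinones, and in brain cultures the pathway is best known from astrocytes, whereas neurons are described as holding it low. On GRCm38 the heme gene is *Hmox1* (Entrez 15368) at chr8:75093618-75100593 (plus strand). The glutathione genes are *Slc7a11* (Entrez 26570) at chr3:50364936-50499087 (minus strand), *Gclm* (Entrez 14630) at chr3:122245487-122267215 (plus strand) and *Gclc* (Entrez 14629) at chr9:77754535-77794489 (plus strand). The thioredoxin genes are *Txnrd1* (Entrez 50493) at chr10:82833951-82897724 (plus strand), *Srxn1* (Entrez 76650) at chr2:152105524-152111376 (plus strand) and *Txn1* (Entrez 22166) at chr4:57943373-57956411 (minus strand). The others are *Nqo1* (Entrez 18104) at chr8:107388225-107403205 (minus strand) and *Osgin1* (Entrez 71839) at chr8:119425882-119446257 (plus strand).

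To show what these promoters have in common, the 250 bases before each annotated start were searched on both strands for the ARE core TGACNNNGC, for TGAGTCA or TGACTCA (the letters that AP-1 and MAF-containing dimers share), for TGATGNAA (the core of the elements bound by C/EBP and ATF factors) and for GAANNTTC (paired heat shock units). RefSeq promoter windows on GRCm38.p6 matched 7 of the 9 genes, *Hmox1* and *Gclc* being the others, and 5 of them held a match to at least 1 motif. The stretches below run 5′ to 3′ along each gene's own strand, end before its start and carry the matched letters in capitals. For *Slc7a11*, *Osgin1* and *Txnrd1* the start used is that of a transcript beginning inside the full annotated span of the gene given above. They lie at chr2:152105397-152105510 (plus strand, *Srxn1*), chr3:50443628-50443704 (minus strand, *Slc7a11*), chr3:122245398-122245456 (plus strand, *Gclm*), chr8:119437025-119437081 (plus strand, *Osgin1*) and chr10:82859089-82859147 (plus strand, 1 of 3 *Txnrd1* windows).
Srxn1: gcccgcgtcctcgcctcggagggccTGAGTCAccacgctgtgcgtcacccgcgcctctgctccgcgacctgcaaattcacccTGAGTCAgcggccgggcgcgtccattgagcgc
Slc7a11: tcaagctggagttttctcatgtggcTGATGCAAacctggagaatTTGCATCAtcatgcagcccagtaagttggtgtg
Gclm: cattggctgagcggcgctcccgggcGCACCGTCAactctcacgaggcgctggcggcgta
Osgin1: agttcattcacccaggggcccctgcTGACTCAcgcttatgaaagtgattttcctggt
Txnrd1: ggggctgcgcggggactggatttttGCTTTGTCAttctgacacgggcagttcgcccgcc

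The *Srxn1* window carried TGAGTCA beginning 102 and 45 bases before the start, and the *Osgin1* window carried TGACTCA beginning 97 bases before it. The *Slc7a11* window carried TGATGCAA beginning 66 bases before the start and the same letters on the opposite strand beginning 47 bases before it. *Gclm* and *Txnrd1* had the ARE core on the opposite strand, beginning 134 and 92 bases before the start. The search for this core allowed only C, not G, after TGA. The *Srxn1* match 45 bases before the start runs on as TGAGTCAGC, which differs from the core at that letter alone and was not counted. An ARE core whose inner letters read TCA would also hold TGACTCA, but no 2 matches overlapped here. *Nqo1* and *Txn1* held none of the searched letters in this window, and GAANNTTC occurred in none of the 7 genes. Among 27025 genes with such windows, 11.5% held the ARE core, 5.16% held TGAGTCA or TGACTCA, 3.91% held TGATGNAA and 7.73% held GAANNTTC. A match describes the letters only, and elements farther upstream were not searched.

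The first question was whether proteasome inhibition changed these mRNAs in somas. After MG132, 7 of the 9 rose at an adjusted p under 0.01 (edgeR quasi-likelihood test, Benjamini-Hochberg over the 14185 tested genes) and none fell, whereas 9.52% of all tested genes rose and 5.72% fell. The median log2 fold change was 2.35 over the 9 genes and -0.07 over all tested genes. In neurites 7 of the 9 rose as well and none fell, against 9.76% and 5.67% of all tested genes, with medians of 2.08 and -0.16. The 9 were chosen with earlier results of these data known, so these shares describe the set and do not test it. *Nqo1* and *Txn1* did not pass the test in either fraction. Levels below are CPM, read counts per library size as scaled by the TMM method, given for replicates 1, 2 and 3 in that order, and the plot of all 9 genes by library shows the same values on a log2 scale.

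**Figure D1:**
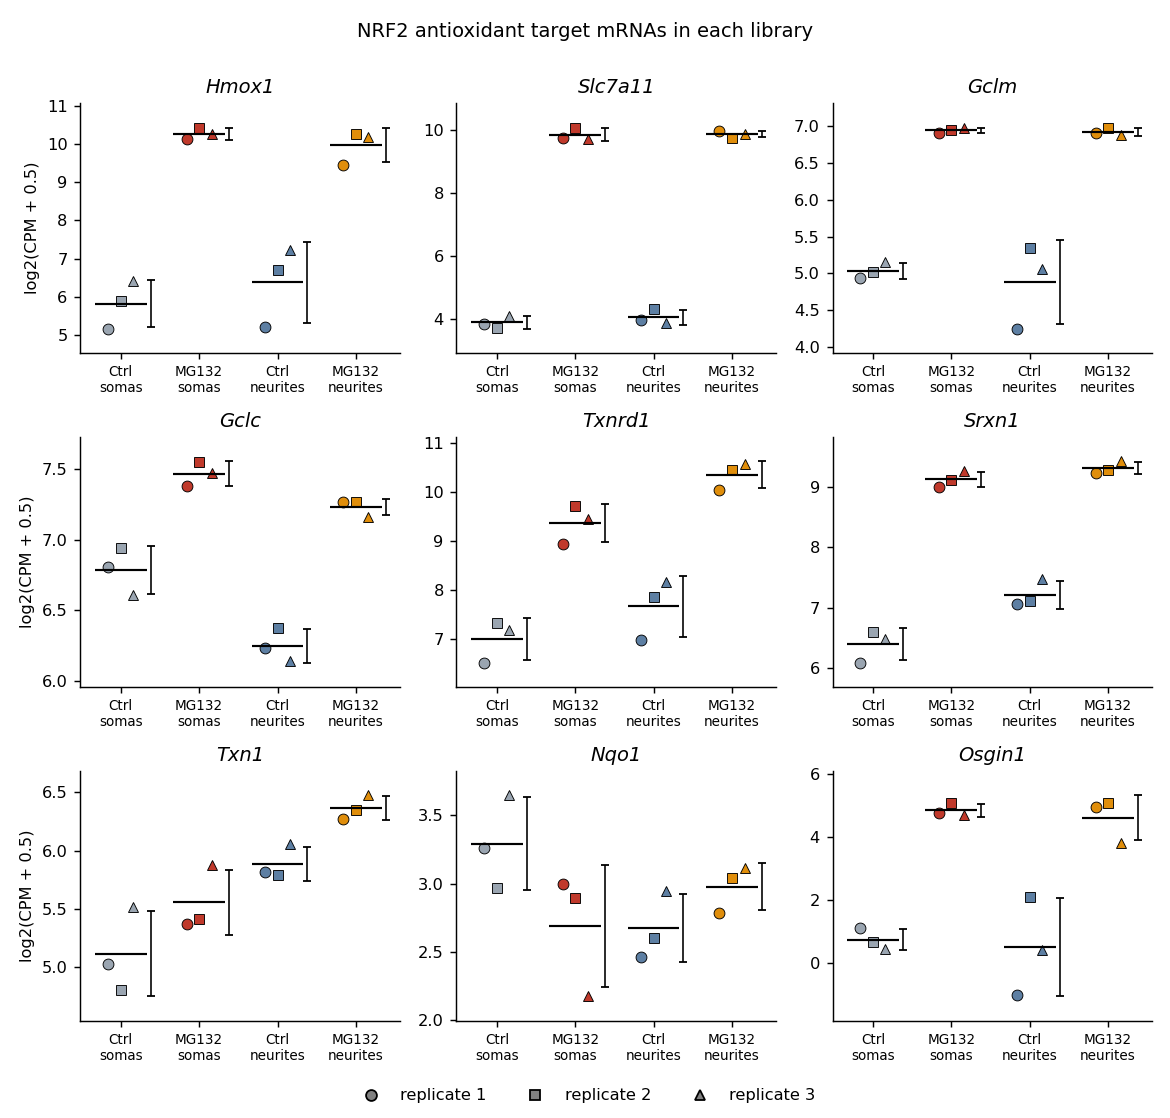
Level of each of the 9 mRNAs in every library, as log2(CPM + 0.5) on separate vertical axes that do not start at 0, for 4 groups of 3 libraries (symbols mark the replicate number, horizontal lines the mean, whiskers ± SD). *Hmox1*, *Slc7a11*, *Gclm*, *Gclc*, *Txnrd1*, *Srxn1* and *Osgin1* lay higher in all 3 MG132 libraries than in all 3 Ctrl libraries of the same fraction, whereas *Nqo1* overlapped in both fractions. Such a lack of overlap is common: of all 14185 tested genes, 3297 lay higher and 3213 lower in somas, and 2900 and 2897 in neurites.

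Heme breakdown was represented by *Hmox1*, heme oxygenase-1, which turns heme into biliverdin, iron and carbon monoxide. *Hmox1* stood at 35.5, 58.8 and 84.2 CPM in Ctrl somas and at 1110, 1378 and 1216 CPM in MG132 somas. In Ctrl neurites it stood at 36.2, 104 and 148 CPM, and in MG132 neurites at 700, 1223 and 1168 CPM. Every MG132 library was far above every Ctrl library, and replicate 1 was the lowest library within each of the 4 groups. The log2 fold change was 4.38 (SE 0.45, adjusted p = 1.49e-05, edgeR) in somas, or 20.8-fold, and 3.42 (SE 0.43, adjusted p = 5.1e-05) in neurites, or 10.7-fold. Within replicate numbers, the log2 ratio ran from 3.84 to 4.95 for the soma libraries and between 2.97 and 4.25 for the neurite libraries. Per kilobase of exon, *Hmox1* was the most abundant of the 9 mRNAs after MG132, at 705 ± 77.1 CPM per kb in somas and 588 ± 164 in neurites (SD, n = 3), up from 34.0 ± 13.9 and 54.9 ± 32.2.

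These fold changes came from mixed cultures. The 10 neuronal markers examined were present in all 12 libraries, with a summed level of 1259 to 1861 CPM in Ctrl somas, 1107 to 2081 in Ctrl neurites, 961.3 to 1634 in MG132 somas and 991.7 to 1834 in MG132 neurites. Markers of 10 genes for astrocytes summed to 4879 to 6064 CPM in Ctrl somas and 20980 to 26140 in Ctrl neurites, and to 2537 to 3333 and 9723 to 19910 after MG132, with *Gjb6* at 0 in MG132 somas. Microglial markers summed to 718.4 to 925.8 and 710.4 to 1335 CPM in Ctrl somas and neurites, and to 225.6 to 385.5 and 144.9 to 306.5 after MG132. The oligodendrocyte lineage summed to 1635 to 6756 and 5225 to 22350 CPM in Ctrl somas and neurites, and to 558.2 to 6163 and 2948 to 16130 after MG132. None of its 10 markers was called between neurites and somas in Ctrl cultures (median log2 ratio 0.06) or after MG132 (median -0.05). Fibroblast and vascular markers summed to 154.1 to 196.6 and 57.62 to 95.67 CPM in Ctrl somas and neurites, and to 41.65 to 57.01 and 28.02 to 38.25 after MG132, with *Cldn5* at 0 in all groups but Ctrl somas. Of 10 astrocyte markers, 6 fell in somas and 4 in neurites after MG132, where 5.72% and 5.67% of all tested genes fell. Of 10 microglial markers, 5 and 6 fell, and of 10 in the oligodendrocyte lineage, 3 and 4 fell. Of 8 tested fibroblast and vascular markers, 4 fell in somas and 1 in neurites, and of 10 neuronal markers, none fell in somas and 1 in neurites. The part of these cells in the changes of the 9 genes was not tested, and fewer cells of a type cannot be told apart from less RNA per cell in such bulk libraries.

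Cystine uptake and glutathione synthesis were represented by *Slc7a11*, *Gclm* and *Gclc*. *Slc7a11*, the light chain of the antiporter that brings in cystine in exchange for glutamate, had the largest fold change of the 9. It stood at 13.9, 12.9 and 16.9 CPM in Ctrl somas and at 853, 1080 and 844 CPM in MG132 somas. In neurites its levels were 15.3, 19.6 and 14.3 CPM in Ctrl and 1005, 866 and 941 CPM after MG132. The 4 groups thus formed 2 tight levels with no overlap between Ctrl and MG132, alike in somas and neurites. The log2 fold change was 5.99 (SE 0.22, adjusted p = 6.73e-10, edgeR) in somas, or 63.6-fold, and 5.83 (SE 0.22, adjusted p = 9.89e-10) in neurites, or 56.8-fold. By size of fold change it ranked 16 of 14185 genes from the top in somas and 24 in neurites. Of the 75-base stretches of its longest transcript, 0.929% also occurred in transcripts of other genes, while the other 8 genes shared no such stretch. Annotated genes overlap the loci of *Slc7a11* (5 genes), *Gclm* and *Txnrd1*, and how strand was treated in counting is not given in the sources used here.

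*Gclm* and *Gclc* encode the modifier and the catalytic subunit of glutamate-cysteine ligase, the rate-limiting enzyme of glutathione synthesis. *Gclm* stood at 30.0, 32.0 and 35.0 CPM in Ctrl somas and at 120, 123 and 126 CPM in MG132 somas. Its levels were 18.5, 40.0 and 32.8 CPM in Ctrl neurites and 119, 126 and 118 CPM in MG132 neurites. After MG132 the 6 libraries lay close together in both fractions, and all 6 exceeded every Ctrl library. *Gclm* rose 3.8-fold in somas (log2 1.93, SE 0.22, adjusted p = 2.94e-05, edgeR) and 3.93-fold in neurites (log2 1.98, SE 0.22, adjusted p = 2e-05). *Gclc* moved less: its levels were 112, 123 and 97.0 CPM in Ctrl somas against 166, 187 and 177 CPM in MG132 somas. In neurites its levels were 74.5, 82.6 and 70.1 CPM against 154, 153 and 143 CPM. Both fractions separated without overlap, but the step was small. *Gclc* rose by 0.68 on the log2 scale in somas (SE 0.15, adjusted p = 0.00376, edgeR) and by 0.99 in neurites (SE 0.15, adjusted p = 0.000257). The soma call missed the threshold in 5 of 6 fits that left out 1 library of the 2 groups, among them the fit without Ctrl somas replicate 3 (adjusted p = 0.0222). Per kilobase, *Gclc* exceeded *Gclm* in Ctrl somas, 29.3 ± 3.40 against 5.14 ± 0.40 CPM per kb (SD, n = 3), and again in MG132 somas, 47.0 ± 2.79 against 19.5 ± 0.49.

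The thioredoxin arm held *Txnrd1*, *Srxn1* and *Txn1*. *Txnrd1*, the cytosolic selenoprotein that reduces thioredoxin with NADPH, stood at 91.5, 159 and 145 CPM in Ctrl somas and at 490, 836 and 696 CPM in MG132 somas. In neurites it stood at 126, 233 and 285.6 CPM in Ctrl and at 1056, 1394 and 1514 CPM after MG132. Within every group replicate 1 was the lowest library, and the groups of a fraction did not overlap. The log2 fold change was 2.35 (SE 0.31, adjusted p = 9.15e-05, edgeR) in somas, or 5.11-fold, and 2.62 (SE 0.31, adjusted p = 3.23e-05) in neurites, or 6.14-fold. Within replicate numbers the log2 ratio in somas was nearly constant, from 2.26 to 2.41.

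*Srxn1* encodes sulfiredoxin, which restores overoxidized peroxiredoxins. Its levels were 67.8, 96.4 and 89.2 CPM in Ctrl somas and 508, 555 and 609 CPM in MG132 somas. In neurites they were 132, 138 and 178 CPM and 600, 617 and 683 CPM. No MG132 library came near a Ctrl library. The log2 fold change was 2.72 (SE 0.19, adjusted p = 4.61e-07, edgeR) in somas, or 6.6-fold, and 2.08 (SE 0.19, adjusted p = 2.77e-06) in neurites, or 4.24-fold.

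*Txn1*, thioredoxin itself, is the substrate of *Txnrd1*'s product. Its levels were 32.0, 27.4 and 45.2 CPM in Ctrl somas and 40.8, 42.2 and 58.3 CPM in MG132 somas, so the groups overlapped. In neurites they were 55.8, 54.9 and 65.9 CPM in Ctrl and 76.8, 81.0 and 88.3 CPM after MG132, without overlap. The log2 difference was 0.44 (SE 0.21, adjusted p = 0.136, edgeR) in somas and 0.48 (SE 0.21, adjusted p = 0.104) in neurites, and neither passed the threshold. Every replicate number had a positive ratio in both fractions, between 0.35 and 0.62 in somas and between 0.42 and 0.56 in neurites.

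The remaining genes were *Nqo1*, a quinone reductase that uses NADH or NADPH, and *Osgin1*, an oxidative stress induced growth inhibitor. *Nqo1* was scarce, with 19 to 171 counts in a library. It stood at 9.11, 7.31 and 12.01 CPM in Ctrl somas and at 7.48, 6.93 and 4.01 CPM in MG132 somas, and at 5.02, 5.59 and 7.22 CPM in Ctrl neurites and 6.38, 7.72 and 8.16 CPM in MG132 neurites. Ctrl and MG132 overlapped in both fractions. The log2 difference was -0.64 (SE 0.36, adjusted p = 0.203, edgeR) in somas and 0.32 (SE 0.37, adjusted p = 0.553) in neurites. Within replicate numbers the ratio was negative in 3 of 3 in somas (-1.47 to -0.07) and positive in 3 of 3 in neurites (0.16 to 0.43).

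*Osgin1* was the scarcest of the 9 in Ctrl libraries, with 8 to 24 counts in Ctrl somas and 0, 34 and 5 counts in Ctrl neurites. It rose from 1.66, 1.11 and 0.88 CPM in Ctrl somas to 26.4, 33.5 and 25.7 CPM in MG132 somas. In neurites its levels were 0, 3.80 and 0.84 CPM in Ctrl and 30.5, 33.2 and 13.5 CPM after MG132. All MG132 libraries exceeded all Ctrl libraries, although the Ctrl neurites values were spread widely. The rise was 22.6-fold in somas (log2 4.5, SE 0.62, adjusted p = 0.000137, edgeR) and 14.2-fold in neurites (log2 3.82, SE 0.62, adjusted p = 0.000383). The size of the neurite value depended on Ctrl neurites replicate 2, without which it was log2 5.67 (SE 0.68, adjusted p = 8.29e-05), and without any other library of the 2 groups it was log2 3.4 to 4.26. Even after MG132 its level per kilobase was 10.7 ± 1.61 CPM per kb in somas and 9.62 ± 4.0 in neurites (SD, n = 3), well below *Hmox1*.

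**Figure D2:**
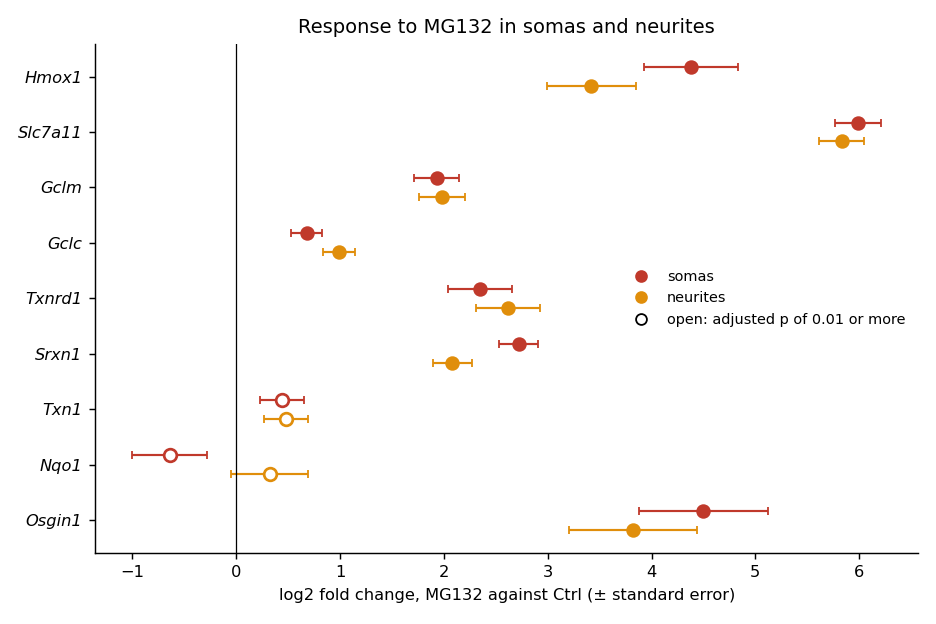
Log2 fold change of each mRNA between MG132 and Ctrl (horizontal axis, bars ± SE from the edgeR fit over 12 libraries) in somas and neurites; filled points have an adjusted p under 0.01. *Slc7a11* stands at 5.99 and 5.83, *Gclc* at 0.68 and 0.99, and the open points of *Nqo1* and *Txn1* lie between -0.64 and 0.48.

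Per kilobase, the order of the mean levels in Ctrl somas ran from *Hmox1* (34.0 ± 13.9 CPM per kb), *Txn1* (33.2 ± 8.80), *Srxn1* (29.9 ± 5.27), *Gclc* (29.3 ± 3.40) and *Txnrd1* (18.6 ± 5.04) down to *Nqo1* (6.10 ± 1.53), *Gclm* (5.14 ± 0.40), *Slc7a11* (1.05 ± 0.15) and *Osgin1* (0.45 ± 0.15; SD, n = 3 each). The first 4 did not differ beyond their spread, nor did *Nqo1* and *Gclm*. In MG132 somas the order was *Hmox1* (705 ± 77.1), *Srxn1* (198 ± 18.1), *Txnrd1* (95.1 ± 24.6), *Slc7a11* (66.5 ± 9.60), *Gclc* (47.0 ± 2.79), *Txn1* (44.8 ± 9.23), *Gclm* (19.5 ± 0.49), *Osgin1* (10.7 ± 1.61) and *Nqo1* (3.96 ± 1.2). *Slc7a11* thus went from the eighth place to the fourth, and *Nqo1* from the sixth to the last. *Txnrd1* and *Slc7a11*, and *Gclc* and *Txn1*, did not differ beyond their spread there. In Ctrl neurites *Txn1* (56.0 ± 5.81), *Hmox1* (54.9 ± 32.2) and *Srxn1* (53.0 ± 8.82) led without differing beyond their spread, followed by *Txnrd1* (30.3 ± 11.5), *Gclc* (20.1 ± 1.68), *Gclm* (4.84 ± 1.74), *Nqo1* (3.83 ± 0.74), *Slc7a11* (1.18 ± 0.20) and *Osgin1* (0.58 ± 0.75). In MG132 neurites *Hmox1* (588 ± 164) again came before *Srxn1* (225 ± 15.5), *Txnrd1* (186.5 ± 33.5), *Txn1* (78.0 ± 5.55) and *Slc7a11* (67.3 ± 5.01), with *Gclc* (39.9 ± 1.64), *Gclm* (19.2 ± 0.72), *Osgin1* (9.62 ± 4.0) and *Nqo1* (4.78 ± 0.60) below them. *Srxn1* and *Txnrd1* did not differ beyond their spread in MG132 neurites. In Ctrl neurites the same held for *Hmox1* and *Txnrd1*, *Txnrd1* and *Gclc*, *Gclm* and *Nqo1*, and *Slc7a11* and *Osgin1*. Lengths were unions of all annotated exons, 7086 bases for *Txnrd1* and 13922 for *Slc7a11*, whose longest transcripts have 3622 and 9223 bases. With the shorter lengths the levels of both genes would be higher, so their places in these orders depend on this choice.

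The next comparison asked where these mRNAs were found, somas or neurites. In Ctrl cultures 1 of the 9 was called: *Srxn1* was higher in neurites, by 0.82 on the log2 scale (SE 0.18, adjusted p = 0.00601, edgeR), whereas 6.31% of all tested genes were higher in neurites and 1.3% lower. This call missed the threshold in 5 of 6 fits that left out 1 library, with an adjusted p of 0.0531 without Ctrl somas replicate 1. With the replicate number as a block, which pairs the fractions of the same number, 4 of the 9 were called in Ctrl cultures. *Txnrd1* (0.68, adjusted p = 0.00158), *Srxn1* (0.82, adjusted p = 9.19e-05) and *Txn1* (0.77, adjusted p = 0.00114) were then higher in neurites and *Gclc* lower (-0.54, adjusted p = 0.00516), against 10% of all genes higher and 4.67% lower in that fit. Without the block the adjusted p of these was 0.13 for *Txnrd1*, 0.0246 for *Txn1* and 0.0241 for *Gclc*. On total counts without TMM scaling, where the median ratio of all genes was -0.7 in place of -0.04, the *Srxn1* ratio was 0.18 (adjusted p = 0.701) and the ratios of *Slc7a11* and *Osgin1* turned negative.

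After MG132 none of the 9 was called between neurites and somas by edgeR, at 7.2% of all tested genes higher in neurites and 2.16% lower, although *Txnrd1* and *Txn1* had an unadjusted p under 0.05 and DESeq2 called both. The log2 ratio was 0.97 for *Txnrd1* (SE 0.30, adjusted p = 0.0331) and 0.80 for *Txn1* (SE 0.21, adjusted p = 0.0159). With the replicate block both were called, *Txnrd1* at 0.99 (adjusted p = 1.89e-05) and *Txn1* at 0.82 (adjusted p = 0.000511), beside 11.1% of all genes higher and 6.42% lower. Without overlap of their libraries, 2685 of all tested genes were higher and 2534 lower in MG132 neurites than in MG132 somas. For *Txnrd1* the 3 MG132 neurites libraries lay above the 3 MG132 somas libraries, and within replicate numbers the log2 ratio ran from 0.74 to 1.12. For *Txn1* the groups were also apart, with ratios from 0.60 to 0.93. The other 7 genes had ratios between -0.26 (*Hmox1*, SE 0.39) and 0.29 (*Nqo1*, SE 0.36), with *Slc7a11* at 0.02 (SE 0.18) and *Gclm* at -0.02 (SE 0.21). On total counts the median of all genes shifted from -0.08 to -0.86, and the ratios of *Srxn1* (-0.62), *Nqo1* (-0.49) and *Slc7a11* (-0.78) became negative and that of *Txn1* fell to 0. Of 10 astrocyte markers, 3 were called higher and 1 lower in neurites than in somas in Ctrl cultures (median log2 ratio -0.01), and 5 and 1 after MG132 (median 0.94). Their summed level was led by *Gfap*, at 1965 ± 519 CPM in Ctrl somas and 17770 ± 3305 in Ctrl neurites (SD, n = 3). The part of these cells in the ratios was not tested.

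**Figure D3:**
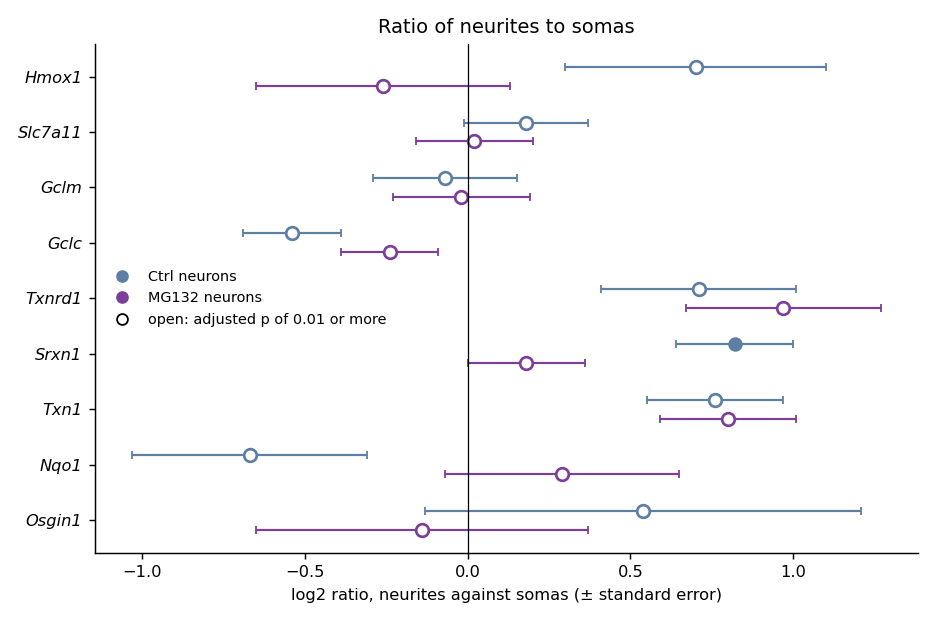
Log2 ratio of neurites to somas for each mRNA (horizontal axis, bars ± SE from the edgeR fit without a block) in Ctrl and MG132 cultures; the 1 filled point, *Srxn1* in Ctrl at 0.82, has an adjusted p under 0.01. *Txnrd1* and *Txn1* lie to the right of 0 in both conditions (0.71 and 0.97, 0.76 and 0.80), and *Gclm* and *Slc7a11* sit near 0; on total counts, not drawn, *Txn1* after MG132 stands at 0.

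Whether the response itself differed between fractions was tested as an interaction. None of the 9 passed, and neither did any of the 14185 genes, the smallest adjusted p being 0.328 (edgeR). At an unadjusted p under 0.05 stood 1 of the 9, *Srxn1*, and 7.05% of all genes (474 with a larger and 526 with a smaller response in neurites). The *Srxn1* response was smaller in neurites by 0.64 on the log2 scale (difference -0.64, SE 0.25, unadjusted p = 0.0236, adjusted p = 0.619), in 3 of 3 replicate numbers. *Hmox1* had a difference of -0.96 (SE 0.56, adjusted p = 0.787) and *Nqo1* of 0.96 (SE 0.51, adjusted p = 0.759), which their SE does not set apart from 0. *Gclm* (0.05, SE 0.30), *Txn1* (0.04, SE 0.30) and *Slc7a11* (-0.16, SE 0.26) had the smallest differences. DESeq2 called 20 larger and 6 smaller responses in neurites over all genes and the replicate block 14 and 7, with none of the 9 among them. The MG132 comparisons of the fractions have no library in common, but each fraction's Ctrl libraries also enter the Ctrl comparison of neurites with somas.

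Next to the targets, the genes that control NRF2 were examined. *Nfe2l2* mRNA itself stood at 93.1 ± 15.9 CPM in Ctrl somas and 121 ± 15.8 in MG132 somas (SD, n = 3), a log2 difference of 0.37 (SE 0.23, adjusted p = 0.252, edgeR). In neurites it was 81.9 ± 26.3 and 106 ± 16.6 CPM, a log2 difference of 0.37 (SE 0.23, adjusted p = 0.253). *Keap1* differed by -0.46 in somas (SE 0.27, adjusted p = 0.236) and by -0.49 in neurites (SE 0.27, adjusted p = 0.199). Neither mRNA passed the test, with or without the block. *Bach1*, whose product competes with NRF2 and represses *Hmox1*, rose from 24.1 ± 4.59 to 119 ± 31.4 CPM in somas (log2 fold change 2.30, adjusted p = 0.000113) and from 24.9 ± 10.3 to 98.3 ± 29.7 CPM in neurites (1.97, adjusted p = 0.000326).

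**Figure D4:**
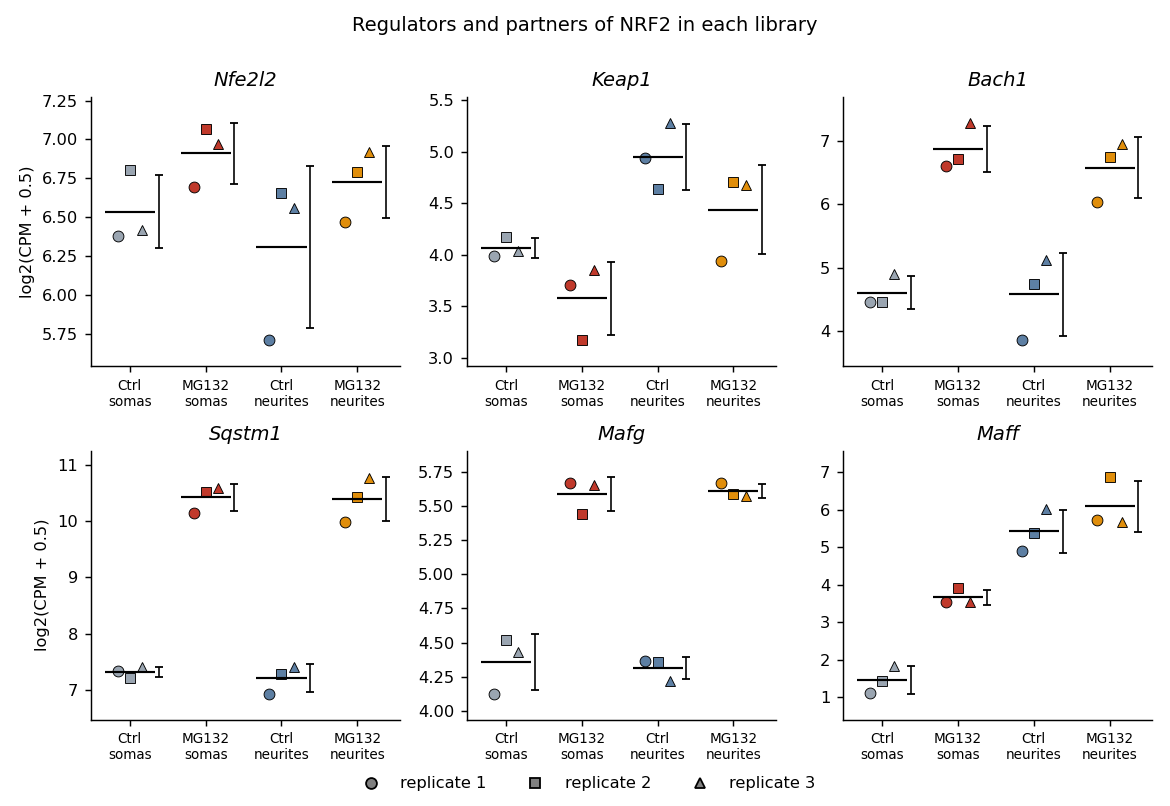
Level of 6 regulators or partners of NRF2 in every library, as log2(CPM + 0.5) on separate vertical axes that do not start at 0, for 4 groups of 3 libraries (symbols mark the replicate number, horizontal lines the mean, whiskers ± SD). *Bach1*, *Sqstm1* and *Mafg* lie higher after MG132 in both fractions, *Nfe2l2* overlaps between Ctrl and MG132 in both fractions and *Keap1* in neurites, and *Maff* is higher in Ctrl neurites than in either group of somas.

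Of 13 regulators and partners, 6 rose in somas and none fell, and 4 rose and 1 fell in neurites. Of all tested genes, 9.52% rose and 5.72% fell in somas, and 9.76% and 5.67% in neurites. With the block 7 rose in somas, the added gene being *Nfe2l1* (0.54, adjusted p = 0.0053, edgeR), and the neurite counts stayed at 4 and 1. *Sqstm1*, which encodes the autophagy receptor p62 that binds KEAP1, rose from 159 ± 10.1 to 1382 ± 222 CPM in somas (log2 fold change 3.12, adjusted p = 6.66e-07, edgeR) and from 149 ± 24.4 to 1378 ± 365 CPM in neurites (3.21, adjusted p = 7.36e-07). Among the small MAF partners, *Mafg* rose in both fractions (1.25 and 1.32). *Maff* (2.41) and *Mafk* (1.94) rose in somas, and their differences in neurites were 0.71 (adjusted p = 0.143) and 0.46 (adjusted p = 0.29). *Maff* and *Mafk* were already higher in Ctrl neurites than in Ctrl somas, at 45.0 ± 18.2 against 2.32 ± 0.72 CPM and 36.5 ± 4.78 against 5.22 ± 1.55 CPM. *Cul3*, the scaffold of the KEAP1 ligase, rose by 0.94 in somas and 1.46 in neurites, and *Rbx1*, its RING subunit, fell by 1.39 in neurites.

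Across 104 other genes of the same biology, 97 were tested. Of these, 15 rose and 10 fell in somas, beside 9.52% of all tested genes higher and 5.72% lower. In neurites 13 rose and 5 fell, beside 9.76% and 5.67%. With the block 24 rose and 19 fell in somas, beside 14.1% of all genes higher and 11% lower. In neurites the block gave 16 and 11, beside 13.6% and 11.4%. The tested genes had a median log2 fold change of -0.22 (somas) and -0.11 (neurites), beside -0.07 and -0.16 for all tested genes. Among 29 tested genes reported as further NRF2 targets, 4 rose and 4 fell in somas, and 2 rose and 3 fell in neurites (with the block 6 and 8, and 4 and 5). *Esd*, an esterase that also hydrolyses S-formylglutathione (1.73 and 1.98), and *Prdx1*, a peroxiredoxin (1.45 and 1.39), rose in both fractions, and *Blvrb*, a biliverdin reductase (1.51), and *Pgd* of the pentose phosphate pathway (1.0) rose in somas. *Gstm1*, a glutathione transferase (-2.04 and -1.55), *Cbr1*, a carbonyl reductase (-1.97 and -1.86), and *G6pdx*, which opens the pentose phosphate pathway (-1.22 and -1.18), fell in both, although they share a list with the genes that rose. The transferases of the *Gstm* family resemble each other, and whether this affected their counts was not tested.

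Of 23 tested genes of glutathione metabolism, 3 rose and 3 fell in somas, and 4 rose and none fell in neurites. The shares of all tested genes were 9.52% higher and 5.72% lower in somas, and 9.76% and 5.67% in neurites. *Slc3a2*, the heavy chain that pairs with the *Slc7a11* product, rose from 80.8 ± 15.0 to 398 ± 32.9 CPM in somas (2.30, adjusted p = 1.03e-06, edgeR) and from 74.8 ± 10.5 to 340 ± 14.6 CPM in neurites (2.18, adjusted p = 1.45e-06). *Cth*, which makes cysteine from cystathionine, rose by 2.75 in somas and 4.28 in neurites from at most 27 counts in a Ctrl library. *Chac1*, which breaks glutathione down, rose by 5.04 in somas, and in neurites its counts went from 0 to 3 in Ctrl libraries to 149 to 735 after MG132 (adjusted p = 1.99e-07). *Gss*, glutathione synthetase, rose in neurites (1.30) and stood at 0.96 in somas (adjusted p = 0.0143, and 0.00769 with the block). *Gpx8* (-1.95), *Gstz1* (-1.07) and the glutathione peroxidase *Gpx1* (-1.01) fell in somas. With the block, *Gpx8* (-0.88, adjusted p = 0.00826) and *Gpx1* (-0.60, adjusted p = 0.00653) were also lower in neurites.

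Of 15 thioredoxins, peroxiredoxins and methionine sulfoxide reductases, *Txnl1*, a thioredoxin-like protein that binds the proteasome, rose in both fractions (1.45 and 1.58). *Nxn* (-1.81), *Msra* (-1.57) and *Prdx2* (-1.24) fell in somas, and the other 11 genes in somas and 14 in neurites did not pass. For this list and those below, the shares of all tested genes were 9.52% higher and 5.72% lower in somas. In neurites they were 9.76% and 5.67%. With the block, *Txnip* was also lower in somas (-0.77, adjusted p = 0.0093, edgeR) and in neurites (-1.63, adjusted p = 9.59e-06). *Prdx6* was then lower in somas (-0.79, adjusted p = 0.000312). Among 5 superoxide dismutases, catalase and related genes, none passed in somas, and the cytosolic dismutase *Sod1* rose in neurites (1.05). Of 12 genes of heme and iron handling, *Alas1*, which starts heme synthesis, rose in somas (1.09). *Ireb2*, an iron regulatory protein, rose (0.79) and *Hmox2*, the constitutive heme oxygenase, fell by 1.07 in neurites. With the block this list had 6 genes higher and 3 lower in somas, and 2 higher and 2 lower in neurites. In somas these were *Alas1*, *Ireb2* (0.54), the ferritin chains *Fth1* (0.96, adjusted p = 4.08e-05, edgeR) and *Ftl1* (0.83, adjusted p = 0.00112), the iron exporter *Slc40a1* (1.77, adjusted p = 0.00259) and the iron importer *Slc11a2* (0.98, adjusted p = 0.000112), all higher. The transferrin receptor *Tfrc* (-1.01, adjusted p = 6.51e-05), the ferroxidase *Cp* (-0.58, adjusted p = 0.000828) and the heme-binding *Hebp1* (-1.64, adjusted p = 0.00109) were lower. In neurites *Slc11a2* (0.66) was then also higher and *Tfrc* (-0.75) lower.

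**Figure D5:**
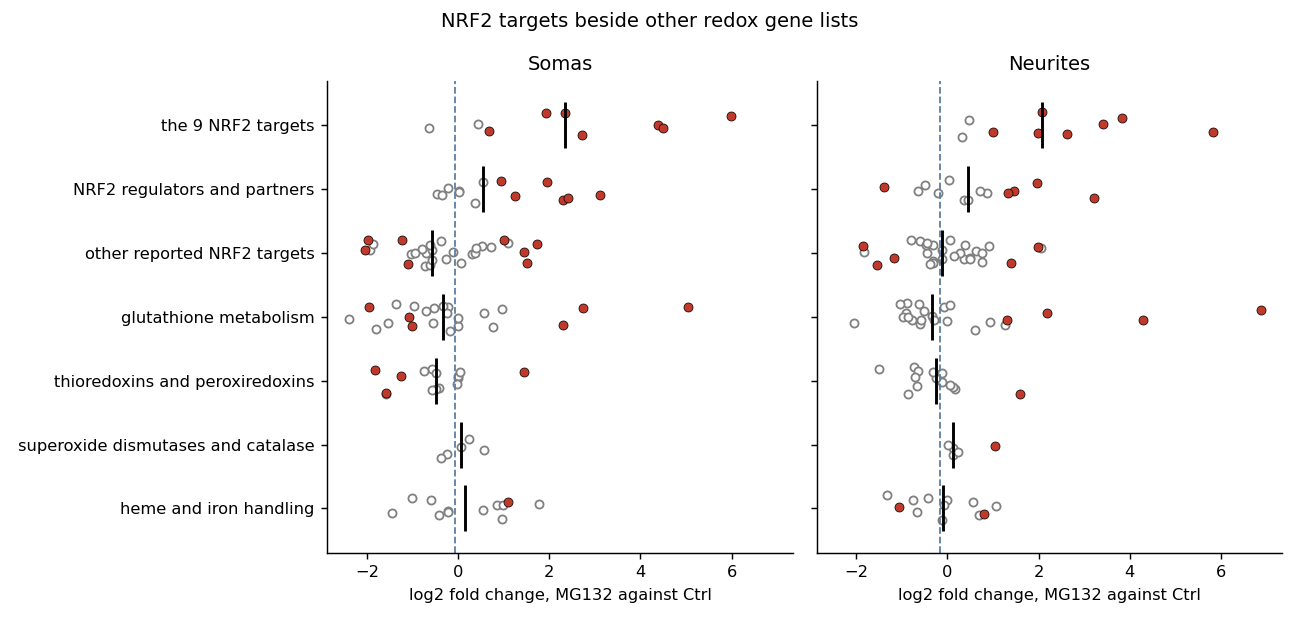
Log2 fold change of the tested genes of each list between MG132 and Ctrl (horizontal axis) in somas and neurites; filled points have an adjusted p under 0.01, black bars mark each list's median and the dashed line the median of all tested genes (-0.07 and -0.16). The 9 NRF2 targets have a median of 2.35 in somas and 2.08 in neurites, while the medians of the other lists lie between -0.58 and 0.54 in somas and between -0.34 and 0.46 in neurites; the rightmost glutathione point in neurites is *Chac1*, whose fitted value rests on 0 to 3 counts in Ctrl libraries. All lists were chosen with earlier results of these data known, so the contrast between them is a description.

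Over the 12 libraries, the mRNAs whose log2 CPM followed *Hmox1* most closely were *Eif1a* (Pearson's r = 0.988), *Atf3* (0.979) and *Zfp622* (0.979). *Txnrd1* was followed by *Cct2* (0.993), *Creb1* (0.992) and *Eif3c* (0.988), and *Gclm* by *Gnl3* (0.991), *Sf1* (0.987) and *Api5* (0.985). These r values describe 12 libraries in 4 groups, so they mostly carry the step between Ctrl and MG132. Among the targets themselves, r with *Hmox1* was 0.976 for *Gclm*, 0.967 for *Srxn1*, 0.963 for *Slc7a11*, 0.943 for *Txnrd1*, 0.922 for *Osgin1*, 0.803 for *Gclc*, 0.507 for *Txn1* and -0.178 for *Nqo1*. *Gclm* was the closest of them, at rank 9 among all tested genes.

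The libraries held 4247610 to 22166347 counts. Mitochondrially encoded genes took 9.78% to 29.2% of the counts, and 1 gene without a symbol took 12.4% to 33.4%. Both shares were left in the main fit, and without them the same number of targets was called after MG132, 7 in each fraction.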

How the data were processed

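Poly(A)-selected RNA of 12 libraries was sequenced by the authors. Per the labels and the study's methods, they trimmed reads with Trimmomatic (0.38.0), aligned single reads to mm10 with STAR, and counted reads per gene with featureCounts (2.0.1) at default parameters; how strand was treated is not given in the sources used here. The deposited values are raw counts per Entrez gene, with no normalization. Symbols were found for 25275 of 27179 genes (93.0%) and coordinates are those of GRCm38. No 2 of the 66 library pairs were identical.

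Counts were tested with edgeR (4.0.16, R 4.3.3): TMM factors, filterByExpr by group, 1 quasi-likelihood model with 4 group means over the 12 libraries, and Benjamini-Hochberg adjustment over 14185 genes. A call was an adjusted p under 0.01 without a fold threshold, since the study gives its 1.7-fold threshold on different scales. SE is |log2 fold change| over the root of the F statistic. Log2 ratios within replicate numbers used an offset of 0.5 CPM, and the correlations a prior count of 2. The code was tested on simulated data. The alternatives were DESeq2 (1.42.0), other scalings, filters, thresholds, the replicate block and leaving out each library. The authors used DESeq2 at default parameters; its design terms are not given in the sources used here.

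Replicate numbers come from the sample labels and are shared by the 4 groups; dates within the library names follow these numbers except in 1 MG132 neurites library. Around the group means, libraries of 1 number deviated together (r 0.0972 to 0.248, 18 pairs, and -0.181 to -0.00639 for other pairs). Since deviations cancel within a group, the negative values of other pairs follow from the positive ones and add no support. Within each comparison of 2 groups every same-numbered r exceeded 0.1, so the numbers were taken to pair the samples there. The 1 lower value joins Ctrl neurites and MG132 somas. The main model leaves this pairing out, and only the fits with the replicate block use it.

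The targets, the 104 pathway genes and the markers were chosen with earlier results of these data known. Named were all 9 targets, *Nfe2l2*, *Keap1* and *Bach1*. Also named were up to 3 called genes with the largest rise and fall per list and MG132 comparison. The 3 genes correlating best with *Hmox1*, *Txnrd1* and *Gclm* were named too. *Mafg*, *Mafk*, *Pgd*, *Gss*, *Gfap* and some genes called only with the block were added after their values were seen. So were the *Maff* and *Mafk* levels in Ctrl. In the MG132 comparisons, further NRF2 targets called only with the block are counted but not named. Promoter windows are from RefSeq.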

Additional observations from a re-analysis of the deposited data

How the results depend on the processing

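The 7 targets that rose after MG132 kept their direction in both fractions in every alternative that gave a value, and the count ranged from 6 to 7 in somas and stayed at 7 in neurites when 1 library was left out. Beside the fits without 1 library given in the report, *Gclc* missed the threshold on total counts in somas (adjusted p = 0.157) and neurites (adjusted p = 0.0612) and at a log2 fold above 1.7 in both. *Osgin1* was not tested when at least 10 counts were required in every library. Total counts called 492 higher and 417 lower of all genes in somas, against 1350 and 812, and 482 and 538 in neurites, against 1385 and 804. For neurites against somas they called 179 and 936 in Ctrl, against 895 and 185, and 138 and 2115 after MG132, against 1021 and 307. In Ctrl cultures the count of targets that differed between neurites and somas was 1 as reported, 2 with DESeq2 and with at least 10 counts in every library, 0 with only the groups compared and with a log2 fold above 1.7, 4 with the replicate block, 3 at an adjusted p under 0.05, and 0 to 1 when 1 library was left out. After MG132 it was 0 as reported, 1 without the top unnamed gene and mitochondrial genes and with only the groups compared, 2 with DESeq2, without a low-count filter, with the replicate block and at an adjusted p under 0.05, and 0 to 1 when 1 library was left out. The block changed no call of a target beyond those given in the report. It called 2007 and 1560 of all genes in somas, 1929 and 1613 in neurites, 1425 and 662 between Ctrl neurites and somas and 1572 and 910 after MG132, and DESeq2 called 1615 and 1505, 1711 and 1387, 1190 and 546, and 1421 and 637. The 25 pathway genes called in somas became 15 on total counts, 43 with the block, 39 at an adjusted p under 0.05 and 12 at a log2 fold above 1.7, and the 18 in neurites became 7 at that fold. At an adjusted p under 0.05 all genes gave 2203 and 1694 in somas, 2085 and 1738 in neurites, 1452 and 659 in Ctrl and 1615 and 901 after MG132 between fractions, and at a log2 fold above 1.7 they gave 299 and 345, 346 and 311, 301 and 48, and 290 and 72.

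Some ratios changed sign. On total counts, *Slc7a11* (-0.46) and *Osgin1* (-0.08) did so between Ctrl neurites and somas. *Srxn1* (-0.62), *Nqo1* (-0.49) and *Slc7a11* (-0.78) did so after MG132, as did the differences of response of *Gclm* (-0.12) and *Txn1* (-0.11). The *Txn1* ratio after MG132 was not near 0 in the main fit, at 0.80 (SE 0.21), but fell to 0 on total counts, so it depended on the scaling. *Gclm* after MG132 became 0.01 without the top unnamed gene and mitochondrial genes, 0.03 without a filter and 0 with only the groups compared, and *Slc7a11* became -0.05 with at least 10 counts. Leaving out 1 library gave *Gclm* ratios from -0.32 to 0.18 in Ctrl and -0.06 to 0.05 after MG132, and *Osgin1* ratios from -1.3 to 0.97 and -0.38 to 0.21. It gave *Slc7a11* ratios from -0.03 to 0.14 after MG132. Differences of response then ranged from -0.2 to 0.3 for *Gclm*, -1.1 to 1.17 for *Osgin1*, -0.21 to 0.04 for *Slc7a11*, -0.07 to 0.31 for *Txn1* and -0.01 to 0.64 for *Txnrd1*. Without Ctrl neurites replicate 2, which held 34 *Osgin1* counts, its Ctrl ratio was -1.3 and its difference of response 1.17. The causes were not tested.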
